A study of Mus musculus with 12 samples.

Results

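The 5 genes described here are H2-Aa, H2-Ab1 and H2-Eb1, which encode chains of the mouse MHC class II molecules, Cd74, which encodes their invariant chain, and Ciita, which encodes their transcriptional coactivator. They were found by matching the Ensembl identifiers of the count table to these symbols in GENCODE mouse release M21 (GRCm38), and they are 5 of 52638 rows. The match used annotation alone, but the genes were put forward with results of these data already known, so the genotype values in the bead-bound RNA are given as a description.

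Hypothalamic RNA was sequenced from adult mice by translating ribosome affinity purification, in which ribosomes that carry a GFP-tagged L10a protein are pulled down on beads. The Stat3KO mice were LepRb-Cre/Cre and carried Stat3-flox/flox as well as R26-GFP:L10a/GFP:L10a. The Ctrl mice were LepRb-Cre/Cre with R26-GFP:L10a/GFP:L10a and no floxed Stat3, so that both genotypes carry Cre and tagged ribosomes in cells that express LepRb, the long form of the leptin receptor. The labels name no treatment. Each genotype had 3 pools of tissue from 5 to 8 mice, and each pool gave a bead-bound library and a supernatant library of the RNA left behind. This made 4 groups of 3 libraries: Stat3KO bead, Ctrl bead, Stat3KO sup and Ctrl sup. Cre is driven by LepRb, so the floxed Stat3 is a target only in cells that express LepRb or once did, while the supernatant holds RNA from the cells of the tissue block at large.

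MHC class II molecules are pairs of an alpha and a beta chain that display peptides from ingested proteins to CD4 T cells. In mice the I-A molecule is made of H2-Aa and H2-Ab1, and H2-Eb1 is the beta chain of the I-E molecule. The invariant chain Cd74 holds the groove closed in the endoplasmic reticulum and steers the complex to endosomes, where it is cut away by proteases such as cathepsin S. Ciita does not bind DNA itself: it is recruited by the RFX complex, CREB and NF-Y, which sit on the X and Y boxes of class II promoters. Interferon gamma induces Ciita, in part through Irf1. In the healthy brain class II expression is mostly known from macrophages and dendritic cells of the borders and vessels, with little in microglia until they are activated, while neurons are not a known class II cell type.

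The start regions of H2-Aa and H2-Eb1 show the promoter layout that Ciita acts on. The windows of 6 relatives of the chains were searched for the 2 elements marked below. The pair was matched at H2-DMb1 and H2-Ob and not at H2-Eb2, H2-DMa, H2-DMb2 and H2-Oa. The 150 bases before the RefSeq start (GRCm38.p6) are printed 5′ to 3′ on the gene's strand, from chr17:34287824-34287973 (minus strand) for H2-Aa, chr17:34305717-34305866 (plus strand) for H2-Eb1, chr17:34153041-34153190 (plus strand) for H2-DMb1 and chr17:34238755-34238904 (plus strand) for H2-Ob. Capitals mark the first element, CTNGNAAC, a core of the X box, and the second, ATTGG, the CCAAT motif of the Y box read on the other strand.
H2-Aa: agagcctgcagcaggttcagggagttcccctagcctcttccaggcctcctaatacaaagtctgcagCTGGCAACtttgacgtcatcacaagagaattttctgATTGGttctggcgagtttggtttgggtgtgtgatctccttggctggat
H2-Eb1: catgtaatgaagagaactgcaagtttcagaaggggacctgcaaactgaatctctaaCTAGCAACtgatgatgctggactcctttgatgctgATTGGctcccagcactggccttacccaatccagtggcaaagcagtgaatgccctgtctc
H2-DMb1: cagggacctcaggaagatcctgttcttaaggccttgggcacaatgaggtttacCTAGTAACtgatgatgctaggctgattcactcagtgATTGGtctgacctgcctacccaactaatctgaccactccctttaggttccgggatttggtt
H2-Ob: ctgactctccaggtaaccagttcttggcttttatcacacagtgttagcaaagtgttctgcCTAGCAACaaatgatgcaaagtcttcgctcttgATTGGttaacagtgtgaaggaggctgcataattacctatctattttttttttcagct

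Between these elements lie 28 bases in H2-Aa, 27 in H2-Eb1, 28 in H2-DMb1 and 25 in H2-Ob. The letters were chosen after these promoters had been read. Searched on both strands over windows of 250 bases before to 50 bases after the start, CTNGNAAC was in 13.2% and ATTGG in 37.4% of 32851 promoters. The pair on 1 strand with 15 to 40 bases between was in 104 of them, or 0.317%. The motif TTCNNNGAA, the core that STAT proteins bind, was in 8.3% of all promoters and in neither the H2-Aa nor the H2-Eb1 window, and the interferon response core GAAANNGAAA was in 3.44% of all and likewise in neither of these windows. Among the other genes searched (the 6 relatives, Irf1, Irf8 and Cd274), TTCNNNGAA was found once at H2-DMb2, once at 1 of 2 Irf1 starts and at 2 places at 1 of 2 Irf8 starts, and GAAANNGAAA at none. A match describes the letters and shows no binding, and a missing match does not show that a gene lacks X and Y boxes. H2-Ab1, Cd74 and Ciita are named here without a sequence.

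The members lie on 3 chromosomes of GRCm38. H2-Ab1 (ENSMUSG00000073421) spans chr17:34257689-34269419 on the plus strand, H2-Aa (ENSMUSG00000036594) spans chr17:34282744-34287823 on the minus strand, and H2-Eb1 (ENSMUSG00000060586) spans chr17:34305867-34316674 on the plus strand. Cd74 (ENSMUSG00000024610) spans chr18:60803848-60812652 on the plus strand. Ciita (ENSMUSG00000022504) spans chr16:10480059-10528418 on the plus strand, and 329 bases of its exons are shared with Dexi, a gene on the opposite strand that had between 1344 and 2414 reads per library. No source says that strand was kept in the libraries, so reads from the shared bases of Ciita and Dexi cannot be told apart. H2-Eb1 overlaps the annotated antisense gene Gm20513, which had 0 reads in every library and shares 0 exon bases with it.

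The libraries held between 20743217 and 41829907 counts. Levels are given as CPM, read counts relative to the library's total after TMM scaling over the 12 libraries. In each group replicate 1 stood apart from replicates 2 and 3, with a chi-square per gene of 75.5 against both in Stat3KO bead, compared with 16 between replicates 2 and 3. Gfp_L10a, the tag itself, was higher in bead-bound than in supernatant RNA by a log2 fold change of 3.38 in Stat3KO and 3.60 in Ctrl pools (adjusted p = 0.000221 and 3.67e-05, edgeR quasi-likelihood test), and Lepr was higher by 2.30 and 2.37 (adjusted p = 8.71e-05 and 0.000854, same test). Stat3 had 114, 149 and 160 CPM in the Stat3KO bead libraries, against 144, 175 and 179 CPM in the Ctrl bead libraries, with a log2 fold change of -0.24 (SE 0.16, edgeR adjusted p = 0.999). Counts over the whole gene do not separate the floxed exons from the rest, so Stat3 levels do not check the deletion.

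No member exceeded 5.06 CPM in any library. H2-Aa, the alpha chain of I-A, had 4.4, 1.94 and 1.49 CPM in the Stat3KO bead libraries, against 1.08, 0.962 and 0.511 CPM in the Ctrl bead libraries. It had 1.26, 0.855 and 0.633 CPM in the Stat3KO sup libraries, against 1.73, 1.51 and 1.86 CPM in the Ctrl sup libraries. The bead libraries of the genotypes did not overlap and the Stat3KO ones were higher, and the supernatant libraries did not overlap either, with the Stat3KO ones lower. Behind these levels were 140, 74 and 52 reads in Stat3KO bead and 26, 30 and 19 in Ctrl bead.

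H2-Ab1, the partner of H2-Aa in I-A, had 0.661, 1.13 and 0.601 CPM in the Stat3KO bead libraries, against 0.626, 0.192 and 0.377 CPM in the Ctrl bead libraries. In the supernatant Stat3KO libraries had 0.606, 0.578 and 0.633 CPM, against 0.487, 0.655 and 0.932 CPM in Ctrl libraries. The genotypes overlapped in both fractions, and the counts were low, between 6 reads in Ctrl bead replicate 2 and 43 reads in Stat3KO bead replicate 2.

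H2-Eb1, the beta chain of I-E, had 4.5, 2.49 and 2.86 CPM in the Stat3KO bead libraries, against 2.25, 1.31 and 1.1 CPM in the Ctrl bead libraries. In the supernatant Stat3KO libraries had 2.45, 1.8 and 1.58 CPM, against 2.44, 2.22 and 3.32 CPM in Ctrl libraries. The bead libraries did not overlap between genotypes, although the lowest Stat3KO value and the highest Ctrl value lay close together, and the supernatant libraries did. The alpha chain that would pair with it, H2-Ea, is annotated as the pseudogene H2-Ea-ps and had 1 read, in Ctrl sup replicate 1, and 0 in every other library.

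Cd74, the invariant chain, had 5.06, 3.12 and 2.46 CPM in the Stat3KO bead libraries, against 2.71, 0.641 and 1.4 CPM in the Ctrl bead libraries. In the supernatant Stat3KO libraries had 3.51, 2.43 and 2.33 CPM, against 3.72, 3.38 and 4.59 CPM in Ctrl libraries. Both pairs of groups overlapped, in the bead fraction through Ctrl replicate 1 alone, which exceeded Stat3KO replicate 3.

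Ciita, the coactivator, had 0.283, 0.236 and 0.315 CPM in the Stat3KO bead libraries, against 0.209, 0.128 and 0.269 CPM in the Ctrl bead libraries, which is 9, 9 and 11 reads against 5, 4 and 10. In the supernatant Stat3KO libraries had 0.454, 0.878 and 0.83 CPM, against 0.886, 0.655 and 0.836 CPM in Ctrl libraries. The genotypes overlapped in both fractions, whereas every bead library lay below every supernatant library.

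**Figure D1:**
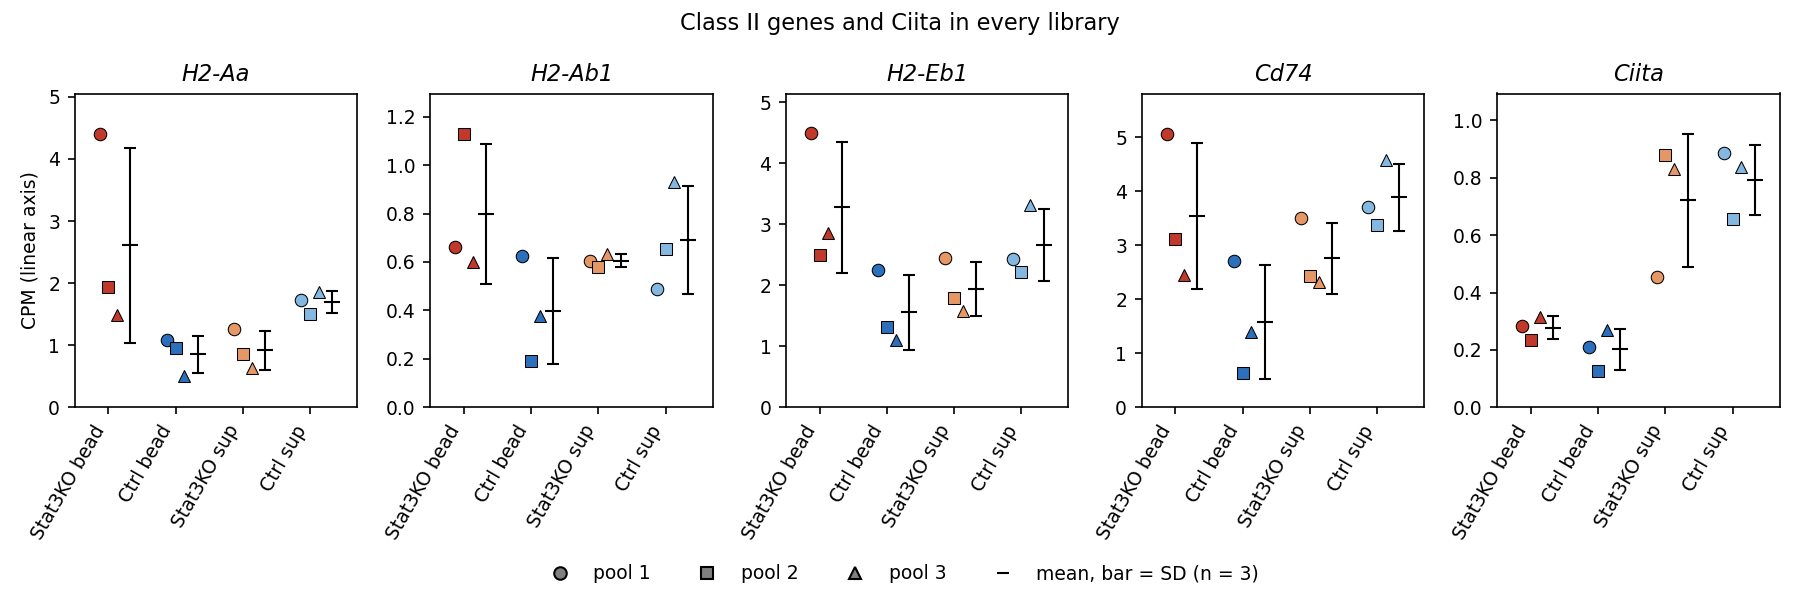
Level of each gene in CPM (linear axis, a scale per panel) in the 12 libraries. Points are libraries, with a symbol per replicate number, and the bar gives the mean with its SD (n = 3). In the H2-Aa panel the Stat3KO bead libraries lie between 1.49 and 4.4 CPM, above the Ctrl bead libraries, and in the Ciita panel all bead libraries lie below all supernatant libraries.

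Ordered by mean level, H2-Aa was highest in Stat3KO bead (2.61 ± 1.57 CPM), followed by Ctrl sup (1.7 ± 0.177), Stat3KO sup (0.916 ± 0.319) and Ctrl bead (0.853 ± 0.302; SD, n = 3 each). Of its neighbours in that order, only Ctrl sup and Stat3KO sup differed beyond their SDs. H2-Ab1 and H2-Eb1 had the same order of groups, and no neighbours differed beyond their SDs. Cd74 was highest in Ctrl sup (3.89 ± 0.624 CPM) and lowest in Ctrl bead (1.58 ± 1.05 CPM), again with every pair of neighbours within their SDs. Ciita had both supernatant groups above both bead groups, and the step from Stat3KO sup (0.721 ± 0.232 CPM) to Stat3KO bead (0.278 ± 0.0395 CPM) was the only one beyond the SDs.

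Per kilobase of annotated exon, the means of the members ran in 1 order in both groups of bead libraries, from Cd74 down to Ciita. In Stat3KO bead libraries, Cd74 had 2.11 ± 0.806 and H2-Eb1 had 1.69 ± 0.549 CPM per kb, H2-Aa had 0.688 ± 0.413 and H2-Ab1 had 0.31 ± 0.113, and Ciita had 0.0292 ± 0.00414 (SD, n = 3). In Ctrl bead libraries the values were 0.943 ± 0.624 for Cd74, 0.801 ± 0.315 for H2-Eb1, 0.224 ± 0.0795 for H2-Aa, 0.155 ± 0.0847 for H2-Ab1 and 0.0212 ± 0.00741 for Ciita. Neighbours in this order were not all apart: in both groups Cd74 and H2-Eb1 differed by less than their SDs and the libraries of H2-Aa and H2-Ab1 overlapped, and in Ctrl bead replicate 2 H2-Eb1 (0.676) lay above Cd74 (0.382).

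In bead-bound RNA the 3 class II chains and Cd74 had positive log2 fold changes in Stat3KO over Ctrl, and none passed the test across all genes. The log2 fold change was 1.63 for H2-Aa (SE 0.468, edgeR adjusted p = 0.603), 1.03 for H2-Ab1 (SE 0.514, adjusted p = 0.999), 1.09 for H2-Eb1 (SE 0.352, adjusted p = 0.834) and 1.18 for Cd74 (SE 0.467, adjusted p = 0.999). Ciita had too few reads for the filter on low counts, and without that filter its log2 fold change was 0.44 (SE 0.784, adjusted p = 0.988). Thus 4 of 5 members were tested and 0 were called by edgeR or by DESeq2, with 3 at an unadjusted p under 0.05, where 0.421% of 17354 genes were called higher, 0.0288% lower and 0.449% in either direction. The median over the 4 members tested was 1.14, against -0.01 over all genes tested. The libraries did not overlap for 2 members, H2-Aa and H2-Eb1, both higher in Stat3KO, where 5.1% of all genes tested had every Stat3KO library above every Ctrl library and 4.27% had every one below. Leaving out Stat3KO bead replicate 1 gave H2-Aa a log2 fold change of 1.03, and leaving out Ctrl bead replicates 1 or 2 gave Cd74 1.78 and 0.79. With no filter, H2-Aa and Cd74 were called (adjusted p = 0.00253 and 0.0444), where that fit called 133 of 30330 genes higher and 50 lower. Without replicate 1 of both groups, a setting added after the data had been seen, H2-Eb1 and Cd74 were called (adjusted p = 0.0492 and 0.0201). That setting called 273 of 17543 genes higher and 894 lower, many more than the main fit.

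In supernatant RNA all 5 members had negative log2 fold changes in Stat3KO over Ctrl, and none passed the test. H2-Aa had -0.87 (SE 0.295, edgeR adjusted p = 0.652), Cd74 -0.50 (SE 0.221, adjusted p = 0.787), H2-Eb1 -0.45 (SE 0.248, adjusted p = 0.837), H2-Ab1 -0.24 (SE 0.347, adjusted p = 0.934) and Ciita -0.14 (SE 0.347, adjusted p = 0.96). No member was called by edgeR or DESeq2 and 2 were at an unadjusted p under 0.05, where 0% of 18547 genes were called higher and 0.0108% lower. H2-Aa was the only member whose libraries did not overlap, where 6.26% of all genes tested had every Stat3KO library below every Ctrl library and 6.4% had every one above. In the same supernatant libraries the summed levels of 12 microglial markers were 79.2 to 114 CPM in Stat3KO and 119 to 127 CPM in Ctrl, and summed astrocyte markers were 270 to 343 CPM in Stat3KO and 391 to 462 CPM in Ctrl. Summed oligodendrocyte markers were 3550 to 4230 CPM in Stat3KO and 4580 to 5720 CPM in Ctrl. Their part in the class II values was not tested. The sign of H2-Ab1 and Ciita turned when 1 library was left out: H2-Ab1 gave 0.048 without Ctrl sup replicate 3, and Ciita gave 0.11 without Stat3KO sup replicate 1.

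Comparing fractions within a genotype, H2-Aa was higher in bead-bound than in supernatant RNA of Stat3KO pools and lower in bead-bound RNA of Ctrl pools. In Stat3KO pools its log2 fold change was 1.47 (SE 0.441, edgeR adjusted p = 0.0305), and it was the only member called higher of 5 tested, where 14.7% of 18107 genes were called higher, 17.3% lower and 32.1% in either direction. That call was lost without Stat3KO bead replicate 1 (log2 fold change 0.88, adjusted p = 0.0663), Stat3KO sup replicate 2 (adjusted p = 0.101) or Stat3KO sup replicate 3 (adjusted p = 0.104). In Ctrl pools the log2 fold change of H2-Aa was -1.01 (SE 0.332, adjusted p = 0.0387), and it was 1 of 3 members called lower, where 20.7% of 18036 genes were called higher, 21.2% lower and 41.9% in either direction. That call was lost in 5 of the 6 fits that left out a library, all but the one without Ctrl bead replicate 1, at adjusted p values of 0.0706 to 0.124, and when all 12 libraries shared 1 fit (adjusted p = 0.0679).

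H2-Eb1 had log2 fold changes of the same signs, 0.74 in Stat3KO pools (SE 0.292, edgeR adjusted p = 0.0809) and -0.79 in Ctrl pools (SE 0.323, adjusted p = 0.0801). With the pool as a block it was called in both, at adjusted p = 0.0162 in Stat3KO and 0.0386 in Ctrl pools. That fit called 8999 of 18107 genes in Stat3KO and 10544 of 18036 in Ctrl pools, in either direction. In Ctrl pools H2-Eb1 was also called without bead replicate 1 (log2 fold change -1.15, adjusted p = 0.00994). Over all settings it was called in 2 of 14 fits in Stat3KO pools and in 4 of 14 in Ctrl pools. H2-Ab1 passed the test in neither genotype, with 0.40 in Stat3KO pools (SE 0.369, adjusted p = 0.438) and -0.85 in Ctrl pools (SE 0.485, adjusted p = 0.189).

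Cd74 was lower in bead-bound RNA of Ctrl pools, with a log2 fold change of -1.32 (SE 0.434, edgeR adjusted p = 0.0386), and had 0.35 in Stat3KO pools (SE 0.303, adjusted p = 0.404). The Ctrl call was lost in the same 5 of 6 fits as that of H2-Aa, at adjusted p values of 0.0662 to 0.109, and held without Ctrl bead replicate 1 (log2 fold change -1.92, adjusted p = 0.00124). Without Stat3KO bead replicate 1 the Stat3KO value was 0.01 (adjusted p = 0.977).

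Ciita was lower in bead-bound RNA of both genotypes. Its log2 fold change was -1.37 in Stat3KO pools (SE 0.423, edgeR adjusted p = 0.034) and -1.93 in Ctrl pools (SE 0.41, adjusted p = 0.00689). Ciita had too few reads for the filter in the bead libraries alone. It entered these fits through the supernatant libraries, where it was higher, which favours a lower value on beads. It had 9, 9 and 11 reads in Stat3KO bead and 5, 4 and 10 in Ctrl bead libraries. In the supernatant it had 18, 38 and 21 reads in Stat3KO and 20, 26 and 35 in Ctrl libraries. The Ctrl call held in 14 of 14 fits. The Stat3KO call was lost in 5 of the 6 fits that left out a library, all but the one without Stat3KO sup replicate 1, at adjusted p values of 0.0503 to 0.158. Dexi, which shares exon bases with Ciita, had log2 fold changes of 0.10 in Stat3KO pools (adjusted p = 0.631) and 0.26 in Ctrl pools (adjusted p = 0.246).

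Taken pool by pool, the bead to supernatant ratio had opposite signs in the genotypes for 3 of the 5 members, above 0 in every Stat3KO pool and below 0 in every Ctrl pool. Of 18191 genes tested for the difference and above 0 CPM in all 12 libraries, 0.484% had these signs and 0.286% the reverse. The log2 ratio of H2-Aa was 1.8, 1.18 and 1.23 in the Stat3KO pools and -0.67, -0.65 and -1.87 in the Ctrl pools. That of H2-Eb1 was 0.88, 0.47 and 0.86 in the Stat3KO pools and -0.11, -0.75 and -1.59 in the Ctrl pools. That of Cd74 was 0.53, 0.36 and 0.08 in the Stat3KO pools and -0.46, -2.4 and -1.71 in the Ctrl pools. H2-Ab1 mixed signs within each genotype, and Ciita was below 0 in all 6 pools. Without pairing by pool, every bead library lay above every supernatant library for H2-Aa and H2-Eb1 in Stat3KO and below for Ciita, where this held for 23.9% and 25% of all genes tested. In Ctrl, every bead library lay below every supernatant library for H2-Aa, Cd74 and Ciita and above for none of the members, where this held for 28.1% and 26.1% of all genes tested.

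The difference of these ratios between genotypes was tested as an interaction over all 12 libraries. It was 2.50 for H2-Aa (SE 0.585, edgeR adjusted p = 0.243), 1.68 for Cd74 (SE 0.553, adjusted p = 1), 1.54 for H2-Eb1 (SE 0.445, adjusted p = 0.78), 1.25 for H2-Ab1 (SE 0.61, adjusted p = 1) and 0.57 for Ciita (SE 0.599, adjusted p = 1). None of the 5 was called by edgeR and 3 were at an unadjusted p under 0.05, where 0.193% of 19122 genes were called higher, 0.0105% lower and 0.204% in either direction. H2-Aa was called by DESeq2 (adjusted p = 0.0131), with the pool as a block (adjusted p = 0.0321) and without the filter (adjusted p = 0.000248), and Cd74 was called without the filter alone (adjusted p = 0.00854). Those fits called 63 of 19122, 59 of 19122 and 97 of 34434 genes in either direction, in that order. The comparisons of genotypes, of fractions and of ratios share libraries, so they are not independent of each other.

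**Figure D2:**
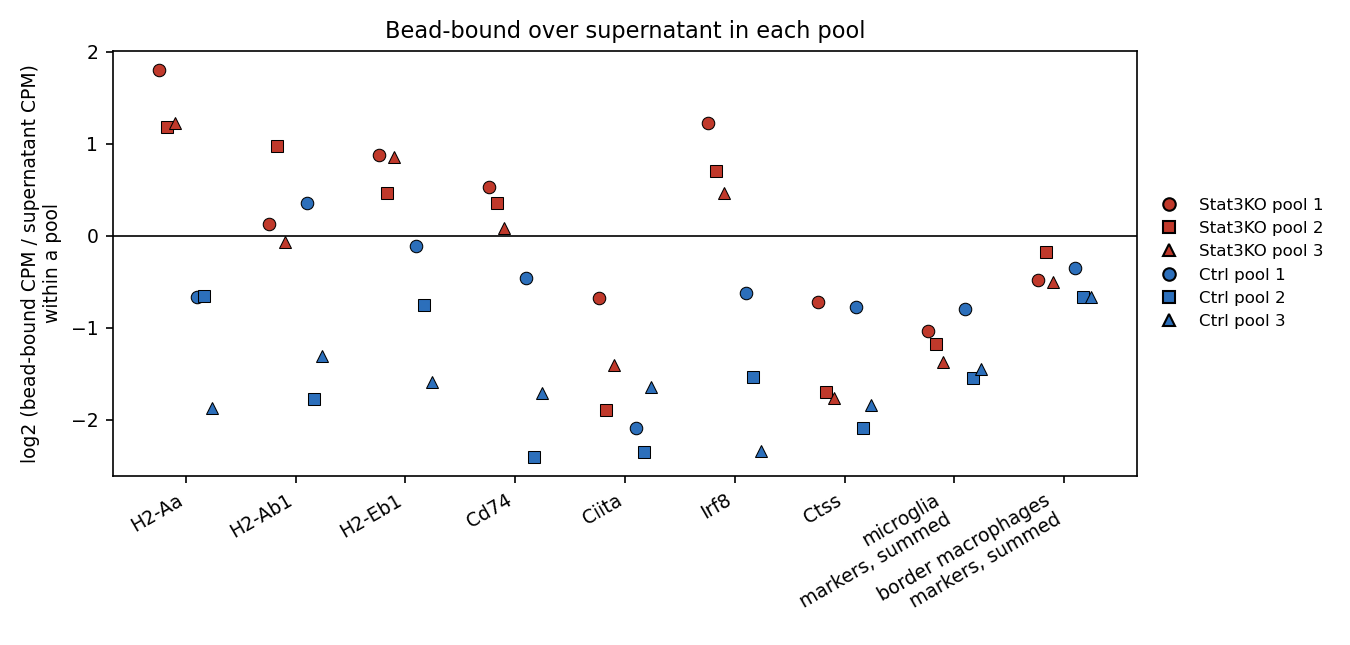
Log2 ratio of bead-bound to supernatant CPM within each pool (vertical axis), for the 5 genes, Irf8, Ctss and the summed microglial and border macrophage markers. Red points are Stat3KO pools, blue points are Ctrl pools, and the symbol gives the pool number. H2-Aa, H2-Eb1, Cd74 and Irf8 lie above 0 in every Stat3KO pool and below 0 in every Ctrl pool, while Ciita, Ctss and both marker sums lie below 0 in all 6 pools.

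Markers of the cell types that could carry class II were read in the same libraries. The 12 microglial markers, among them Csf1r and Cx3cr1, summed to 30.6 to 55.6 CPM in Stat3KO bead libraries and 41.7 to 68.2 CPM in Ctrl bead libraries, and to 79.2 to 114 CPM in Stat3KO sup and 119 to 127 CPM in Ctrl sup libraries. By edgeR, 0 of the 12 were called between genotypes in either fraction, with 0 at an unadjusted p under 0.05 in bead-bound and 4 in supernatant RNA. In bead-bound RNA 11 of 12 were lower than in supernatant RNA in Stat3KO pools and 10 of 12 in Ctrl pools (edgeR adjusted p under 0.05). Over all genes tested, 17.3% of 18107 and 21.2% of 18036 were called lower, in that order. The 8 border macrophage markers, led by Stab1, F13a1 and Cd163, summed to 6.35 to 10.9 CPM in Stat3KO bead, 6.06 to 8.43 in Ctrl bead, 8.86 to 12.4 in Stat3KO sup and 9.63 to 10.7 in Ctrl sup libraries, and 0 of the 6 tested were called between genotypes by edgeR in either fraction, with 1 at an unadjusted p under 0.05 in bead-bound and 0 in supernatant RNA. In bulk RNA, fewer cells of a type and less RNA per cell cannot be told apart.

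Of the 7 dendritic cell markers 5 stayed below 1 CPM in every library, with Xcr1 and Cd209a at 0 reads in Ctrl bead and Ccr7 at 0 in Stat3KO sup. The sum, made almost wholly of Zbtb46 and Flt3 with Clec9a next, was 18.7 to 20.4 CPM in Stat3KO bead, 18.6 to 22.5 in Ctrl bead, 18.6 to 25 in Stat3KO sup and 21 to 25.3 in Ctrl sup libraries. Of the 6 B cell markers 4 stayed below 1 CPM in every library, with Ms4a1 at 0 reads in both bead groups and in Stat3KO sup. Their sum, led by Ighm, Pax5 and Cd79a, was 7.27 to 8.84 CPM in Stat3KO bead, 8.83 to 14.8 in Ctrl bead, 9.53 to 13.8 in Stat3KO sup and 15.6 to 18.2 in Ctrl sup libraries.

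The 6 T and NK cell markers were mostly Cd4, with Cd8a and Nkg7 at 0 reads in both bead groups. They summed to 0.83 to 5 CPM in Stat3KO bead, 2.37 to 4.13 in Ctrl bead, 1.71 to 10.8 in Stat3KO sup and 9.32 to 12.7 in Ctrl sup libraries. The 6 markers of monocytes and neutrophils summed to 0.263 to 0.44 CPM in Stat3KO bead, 0.161 to 1.71 in Ctrl bead, 1.26 to 1.46 in Stat3KO sup and 1.27 to 3.19 in Ctrl sup libraries, with Ly6c2 and Ly6g at 0 reads in both bead groups. Of the markers of these 4 lists that were tested, edgeR called none between genotypes in either fraction, and 1 B cell marker in each fraction was at an unadjusted p under 0.05. Endothelial markers summed to 16.2, 153 and 110 CPM in Stat3KO bead replicates 1 to 3, against 57.9, 70.3 and 140 CPM in Ctrl bead. They summed to 18.8 to 26.4 CPM in Stat3KO sup and 21.2 to 24.7 CPM in Ctrl sup libraries. Stat3KO bead replicate 1, the highest of its group in H2-Aa, H2-Eb1 and Cd74, had the lowest endothelial sum and the highest microglial sum (55.6 CPM). Replicate 2, the highest of its group in H2-Ab1 (1.13 CPM), had the highest endothelial sum. The part of these cell types in the class II values was not tested.

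The members were also set against the summed microglial markers of the same library, a divisor of 30.6 to 55.6 CPM in Stat3KO bead and 41.7 to 68.2 CPM in Ctrl bead libraries. On this scale every Stat3KO bead library lay above every Ctrl bead library for 6.6% of the 17354 genes tested and below for 0.265%. Cd74 was at 9.11%, 7.4% and 8.03% of the microglial sum in Stat3KO bead libraries, against 3.97%, 1.54% and 3.01% in Ctrl bead libraries. It was at 2.85% ± 0.283 in Stat3KO sup and 3.17% ± 0.42 in Ctrl sup libraries (SD, n = 3 each), near the Ctrl bead mean. H2-Eb1 averaged 7.78% ± 1.74 in Stat3KO bead and 2.94% ± 0.5 in Ctrl bead libraries, and H2-Aa averaged 5.79% ± 1.85 in Stat3KO bead and 1.67% ± 0.608 in Ctrl bead libraries, without overlap of libraries for any of the 3 genes. H2-Ab1 averaged 1.94% ± 0.743 in Stat3KO bead and 0.729% ± 0.238 in Ctrl bead libraries, also without overlap. Before the division, H2-Ab1 and Cd74 overlapped between the genotypes. Ciita averaged 0.699% ± 0.286 in Stat3KO bead and 0.397% ± 0.157 in Ctrl bead libraries, which overlapped. These percentages were not tested.

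**Figure D3:**
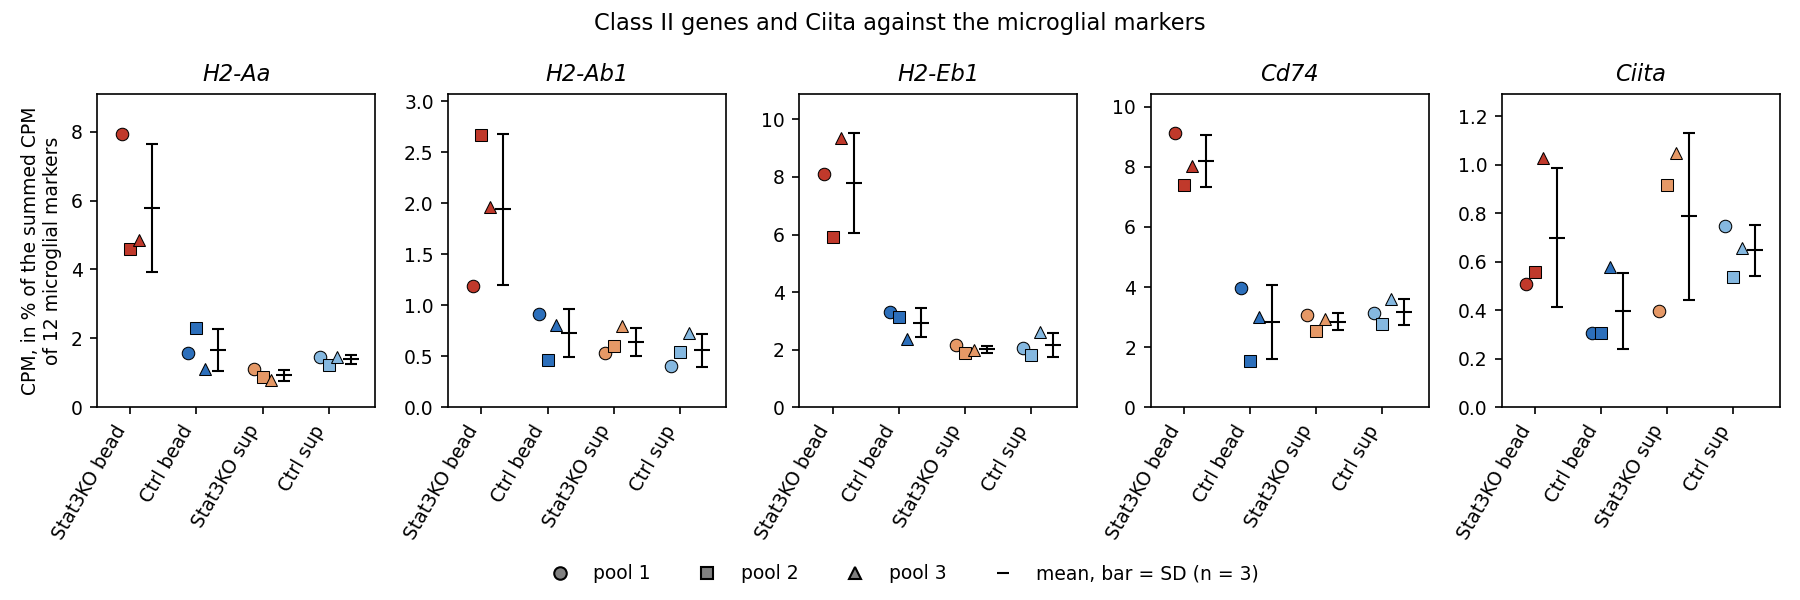
CPM of each gene in percent of the summed CPM of 12 microglial markers in the same library (linear axis, a scale per panel). Points are libraries with a symbol per replicate number, and the bar gives the mean with its SD (n = 3). In the Cd74 panel the Stat3KO bead libraries lie between 7.4% and 9.11%, above all other libraries, and in the Ciita panel the groups overlap.

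The other genes of the class II pathway were read from lists of 42 genes, all of which were in the table. In bead-bound RNA 2 of the 34 tested were higher in Stat3KO than in Ctrl and 0 were lower, where 0.421% and 0.0288% of all 17354 genes tested were. The median log2 fold change over the 34 was 0.02. The 2 higher genes were Cd274, which encodes the inhibitory ligand PD-L1, and Irf1, an interferon-induced factor that acts on the Ciita promoter. In supernatant RNA 0 of the 37 tested were called by edgeR or DESeq2, with 1 at an unadjusted p under 0.05, and the median was -0.05.

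Cd274 had 55.7, 31.4 and 34 CPM in Stat3KO bead libraries, against 8.76, 10.1 and 11.9 CPM in Ctrl bead libraries, a log2 fold change of 1.98 (SE 0.237, edgeR adjusted p = 0.00298). Irf1 had 32.3, 22.3 and 27 CPM in Stat3KO bead libraries, against 9.8, 8.08 and 11.5 CPM in Ctrl bead libraries, a log2 fold change of 1.47 (SE 0.197, adjusted p = 0.00591). The groups did not overlap for either gene, where 5.1% of all genes tested had every Stat3KO library above every Ctrl library. Each of the 2 genes was called in 14 of 14 fits.

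Of the promoter-binding regulators, a list that holds Irf8 and Spi1 besides the RFX, NF-Y and CREB genes, none of the 9 tested passed in bead-bound RNA. The RFX subunits Rfx5, Rfxank and Rfxap had log2 fold changes of 0.05, -0.20 and 0.09, the NF-Y subunits Nfya, Nfyb and Nfyc had 0.02, 0.07 and 0.04, and Creb1 had -0.16. Irf8, a factor of the macrophage and dendritic cell lineages, had 9.28, 6.51 and 6.49 CPM in Stat3KO bead libraries, against 3.34, 1.44 and 0.834 CPM in Ctrl bead libraries. Its libraries did not overlap, where 5.1% of all genes tested had every Stat3KO library above every Ctrl library. Its log2 fold change was 2.02 (SE 0.426, edgeR adjusted p = 0.127). It was called in 6 of 14 fits, among them DESeq2, the fit without Ctrl bead replicate 1 (log2 fold change 2.71, adjusted p = 0.00655) and the fit of all 12 libraries. Spi1, the lineage factor PU.1 of the same cells, had -0.60 (SE 0.457, adjusted p = 0.999).

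Of the relatives of the chains, 3 of 7 were tested in bead-bound RNA and none passed. They form the peptide exchange molecules: H2-DMa, the alpha chain of DM, had -0.08 (SE 0.201), and its beta chains H2-DMb1 and H2-DMb2 had 0.83 (SE 0.603) and 1.21 (SE 0.469), each at an edgeR adjusted p of 0.999. H2-DMb2 had 0.661, 0.604 and 0.458 CPM in Stat3KO bead libraries, against 0.167, 0.289 and 0.269 CPM in Ctrl bead libraries. The groups did not overlap, where 5.1% of all genes tested had every Stat3KO library above every Ctrl library. H2-DMa overlapped between the groups, with 8.32 ± 1.38 CPM in Stat3KO bead and 8.8 ± 1.01 CPM in Ctrl bead libraries (SD, n = 3 each). H2-Oa, H2-Ob, H2-Eb2 and the pseudogene H2-Ea-ps had too few reads.

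None of the 12 genes of antigen processing was called in bead-bound RNA, including Ctss, the protease that trims the invariant chain, at 0.13 (SE 0.462, edgeR adjusted p = 0.999). Ctss had 10.3, 3.89 and 2.63 CPM in Stat3KO bead libraries, against 7.26, 3.46 and 4.68 CPM in Ctrl bead libraries, and the groups overlapped. Without replicate 1 of both groups 5 of these genes were lower in Stat3KO bead-bound RNA: Ctsb, Ctsd, Ctsl, Lgmn and Sppl2a, all of them proteases. In the supernatant 4 of the same genes were lower in that setting, all but Lgmn. In that setting the counts over all genes also moved, to 273 higher and 894 lower of 17543 in bead-bound RNA. In the supernatant they were 200 higher and 788 lower of 18678.

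**Figure D4:**
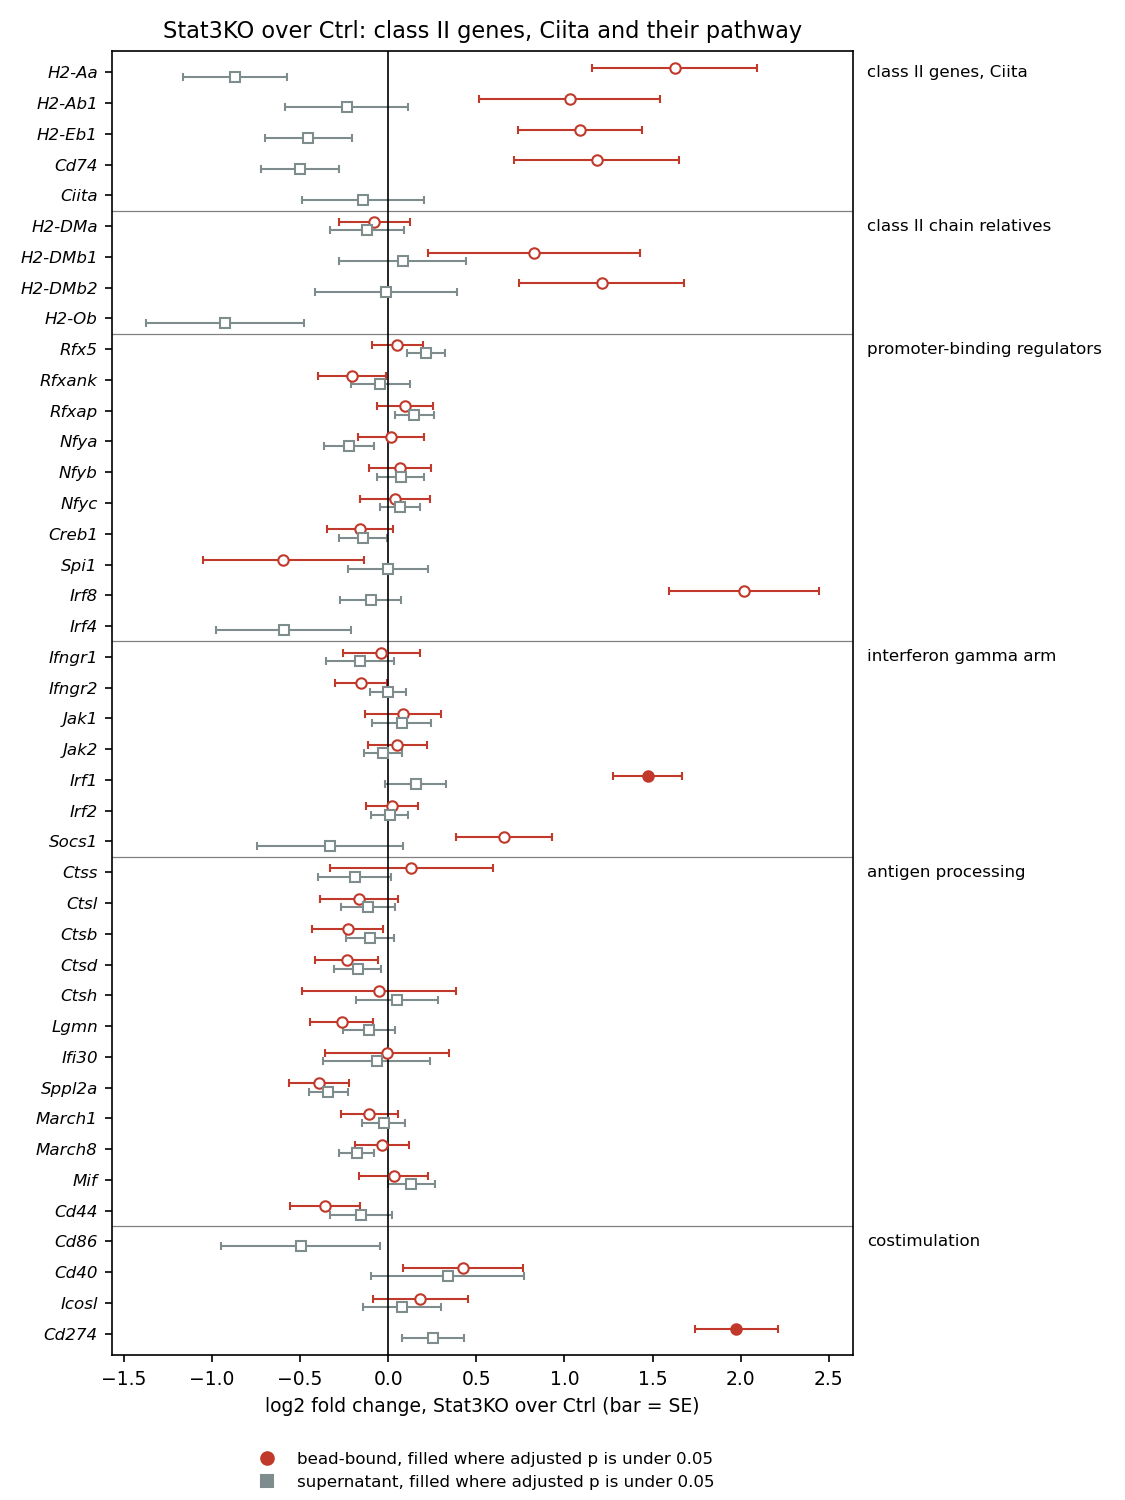
Log2 fold change of Stat3KO over Ctrl (horizontal axis, bar = SE) for the 5 genes and the pathway genes that passed the filter, grouped by list, in bead-bound RNA (red circles) and supernatant RNA (grey squares). Filled symbols mark an adjusted p under 0.05: Irf1 and Cd274 in bead-bound RNA and none in the supernatant. The red points of H2-Aa, H2-Ab1, H2-Eb1 and Cd74 lie between 1.03 and 1.63, and their grey points lie below 0.

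Between fractions, 8 of 36 pathway genes were higher and 4 lower in bead-bound than in supernatant RNA of Stat3KO pools, where 14.7% and 17.3% of all genes tested were. In Ctrl pools 10 of 38 were higher and 9 lower, where 20.7% and 21.2% of all genes tested were. With the pool as a block the counts were 12 and 6 in Stat3KO pools, where that fit called 4290 of 18107 genes higher and 4709 lower. In Ctrl pools they were 13 and 11, where it called 5307 of 18036 genes higher and 5237 lower. In Stat3KO pools Cd274 (log2 fold change 3.16), Irf1 (2.24), Socs1, a feedback inhibitor of the interferon gamma receptor (1.58), and Ctsl, an endosomal protease (0.98), were higher, and Spi1 (-1.80) and Irf4 (-1.62) were lower, with edgeR adjusted p values of 5.58e-05, 5.58e-05, 0.0068, 0.0073, 0.00296 and 0.0457. All but Irf4 held in 14 of 14 fits. Irf4 held in 6 of 14 and, of the fits that left out a library, only without Stat3KO bead replicate 1 (log2 fold change -2.20), at adjusted p values of 0.0945 to 0.142 in the other 5. In Ctrl pools H2-Ob (-2.89), Irf4 (-2.39), Ctss (-1.52), Irf8 (-1.29) and Cd86, a costimulatory ligand (-1.29), were lower and Cd274 (1.46) was higher, with adjusted p values of 0.0176, 0.042, 0.00311, 0.0428, 0.0225 and 0.000571. Ctss and Cd274 held in 14 of 14 fits. Irf8 held in 9 of 14 fits and was lost without Ctrl sup replicates 1, 2 or 3 (adjusted p = 0.0941, 0.0794 and 0.0787) or Ctrl bead replicates 2 or 3 (adjusted p = 0.131 and 0.0776), and without Ctrl bead replicate 1 its value was -1.99. Irf4 also held in 9 and was lost without the same libraries (adjusted p = 0.0582 to 0.137), with -3.85 without Ctrl bead replicate 1. Cd86 held in 7 of 14 fits and was lost without Ctrl sup replicates 1 or 2 or Ctrl bead replicates 2 or 3 (adjusted p = 0.0506 to 0.0936). H2-Ob fell under the filter without Ctrl sup replicate 2 or 3. It had 1, 3 and 0 reads in Ctrl bead and 6, 18 and 13 in Ctrl sup libraries. In the main fit of the bead libraries alone, H2-Ob, Irf4 and Cd86 had too few reads for the filter. They entered the fits of fractions through the supernatant libraries, where they were higher, which favours a lower value on beads.

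In Stat3KO pools Irf8 was higher in bead-bound RNA, with a log2 fold change of 0.80 (SE 0.202, edgeR adjusted p = 0.0156), a call lost without Stat3KO sup replicate 2 (adjusted p = 0.0646) and with all 12 libraries in 1 fit (adjusted p = 0.0702). Of the 38 pathway genes tested for the difference of the ratio between genotypes, 1 was called, Cd274 at 1.71 (SE 0.296, adjusted p = 0.0274). Over all 19122 genes tested, 0.193% were called higher and 0.0105% lower. The Cd274 call was lost without any 1 supernatant library, or without Ctrl bead replicates 1 or 2 (adjusted p = 0.0534 to 0.111). Irf1 had 1.31 (SE 0.26, adjusted p = 0.0768) and Irf8 had 2.12 (SE 0.487, adjusted p = 0.212). With the pool as a block, Cd274, Irf1 and Irf8 were called (edgeR adjusted p = 0.00277, 0.0379 and 0.0239, in that order), as they were with DESeq2 (adjusted p = 4.89e-05, 0.00129 and 0.0049) and without the filter on low counts (adjusted p = 8.94e-08, 0.000691 and 1.72e-06).

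The class II chains share a stretch of chromosome 17 with genes of class I peptide supply. Within 200 kb of the span that holds H2-Ab1, H2-Aa and H2-Eb1 lie 31 annotated genes, of which 12 were tested in bead-bound RNA. Of these, 3 were higher in Stat3KO and 0 were lower, where 0.421% and 0.0288% of all 17354 genes tested were. The 3 were Psmb8 and Psmb9, subunits of the immunoproteasome, and Tap1, a subunit of the peptide transporter. Psmb8 had 42.1, 26.9 and 31.6 CPM in Stat3KO bead libraries, against 3.25, 2.85 and 1.96 CPM in Ctrl bead libraries (log2 fold change 3.65, SE 0.252, edgeR adjusted p = 4.74e-05). Psmb9 had 16.1, 11.9 and 11.7 CPM in Stat3KO bead libraries, against 1.79, 0.577 and 1.48 CPM in Ctrl bead libraries (log2 fold change 3.38, SE 0.352, adjusted p = 0.000971). Tap1 had 23.1, 15.6 and 14.4 CPM in Stat3KO bead libraries, against 2.29, 2.73 and 2.85 CPM in Ctrl bead libraries (log2 fold change 2.74, SE 0.235, adjusted p = 0.000194). Each was called in 14 of 14 fits. Relative to the start of H2-Aa, with negative distances toward lower coordinates, Psmb8 starts at -90.1 kb, Psmb9 at -100.1 kb and Tap1 at -100.3 kb. Tap2, which starts at -84.3 kb, had 0.43 (SE 0.209, adjusted p = 0.999). In the supernatant 13 genes of the region were tested and 0 were called by edgeR, with Psmb8 at 0.81 (SE 0.296, adjusted p = 0.692). Psmb8 was called there in 1 of 14 fits, without replicate 1 of both groups (log2 fold change 1.21, adjusted p = 0.0315).

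**Figure D5:**
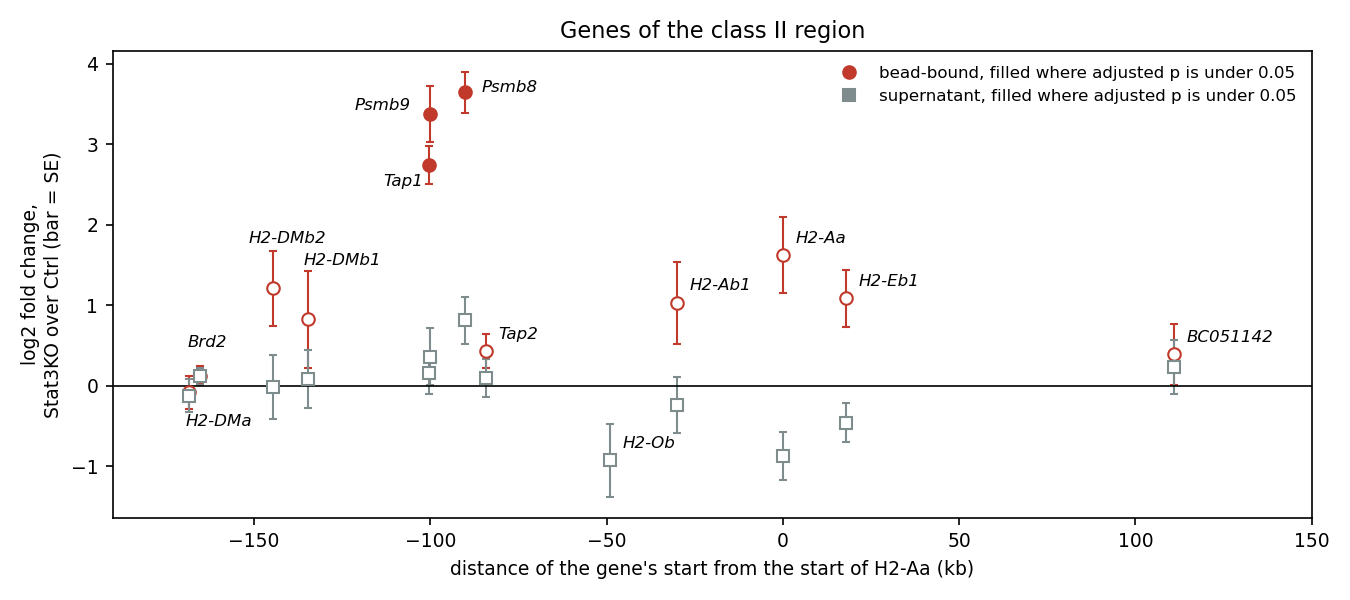
Log2 fold change of Stat3KO over Ctrl (vertical axis, bar = SE) against the distance of each gene's start from that of H2-Aa in kb, for the genes tested in bead-bound RNA (red circles) or supernatant RNA (grey squares). Filled symbols mark an adjusted p under 0.05. Psmb8, Psmb9 and Tap1 lie between 2.74 and 3.65 in bead-bound RNA, above H2-Aa at 1.63.

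Across the 12 libraries the 4 class II transcripts varied together to different degrees, described by Pearson's r of log2 CPM, with the 4 groups, the pools and the depth in common. H2-Aa and H2-Eb1, whose promoters are printed above, had r = 0.92, H2-Eb1 and Cd74 had 0.83, H2-Ab1 and Cd74 had 0.82, and H2-Aa and H2-Ab1, the chains of I-A, had 0.45. Ciita had -0.04 with H2-Aa, 0.14 with H2-Eb1, 0.36 with H2-Ab1 and 0.52 with Cd74. Among 13395 genes with a mean log2 CPM of at least 1, those most like H2-Aa included H2-Eb1 (0.916), Optc (0.813), Xaf1 (0.804) and Dhrs11 (0.794). For H2-Eb1 they were Xaf1 (0.849), Irf8 (0.841), Cd74 (0.829), Dhrs11 (0.815) and Il18bp (0.777).

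The genes most like Cd74 were Rab32 (0.896), Il18bp (0.84), H2-Eb1 (0.829), Dhrs3 (0.828) and Usb1 (0.822). For H2-Ab1, with its low counts, they were Cd74 (0.818), Rab32 (0.754), Socs2 (0.732), Ccn2 (0.723) and Crb2 (0.714). The genes most like Ciita were Ccng1 (0.975), Prrx1 (0.974), 6430590A07Rik (0.971), Gca (0.966) and Rorb (0.958), none of which was on the list of another member. These r values are over the 12 libraries and carry no test.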

How the data were processed

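Hypothalamic RNA of 12 libraries was analysed from the authors' deposited table of raw read counts per gene. Reads were aligned to mm10 with STAR 2.5.3a, per the submitters' processing notes, and the counter is not given in the sources used here. Of 52638 rows, 52489 matched GENCODE M21, 2 are transgenes and 147 did not match. Polyadenylated RNA was read in 50 cycles, single end, per the labels' protocols.

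Genes passing filterByExpr (minimum count 10, minimum total 15) in the libraries compared were tested with edgeR 4.0.16 (quasi-likelihood, TMM) in R 4.3.3, 2-sided, with Benjamini-Hochberg adjustment over all genes tested and a threshold of 0.05. The SE is the log2 fold change divided by the root of F. The test was checked on simulated data, in which all libraries were drawn independently, without shared pools. Same-numbered bead and supernatant libraries come from 1 pool, per the series' design text, and their deviations correlated (r = 0.35, 0.247 and 0.208 in Stat3KO, 0.367, 0.196 and 0.241 in Ctrl). Replicates are pools, and p-values between genotypes within a fraction measure the spread between them. The main fits of fractions and of ratios hold no term for the pool. Their p-values therefore mix the spread between pools with that within pools. No 2 replicates agreed within sampling noise.

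Alternatives were edgeR with DESeq2 size factors or library totals, no filter, DESeq2 1.42.0, the replicate block, all 12 libraries in 1 fit, and each library left out. The members and lists were chosen with earlier results of these data known. Besides the members, the text names pathway genes past the test (in comparisons of fractions the 6 of largest change), called genes of the class II region, the 3 most abundant markers of a list, and the 5 genes of highest r per member (log2 CPM, prior count 2). Irf8 between genotypes, promoter-binding factors, class II relatives and Ctss were named after their values were seen. Some genes that these rules or lists would name are not reported here.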

Additional observations from a re-analysis of the deposited data

Results flagged for a closer look

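The bead to supernatant ratio had a positive log2 value in all 3 Stat3KO pools and a negative one in all 3 Ctrl pools for H2-Aa, H2-Eb1, Cd74, H2-DMb2 and Irf8, where 0.484% of 18191 genes had these signs and 0.286% the reverse. These genes were picked by this pattern from the 5 members and the 42 pathway genes. H2-DMb2 had between 4 and 28 reads per library. The fitted difference, Stat3KO minus Ctrl on the log2 scale, was 2.50 for H2-Aa, 1.54 for H2-Eb1, 1.68 for Cd74, 1.21 for H2-DMb2 and 2.12 for Irf8. None of these 5 differences passed the interaction test in edgeR (adjusted p = 0.243, 0.78, 1, 1 and 0.212, in that order of genes). H2-Aa and Irf8 passed with the pool as a block (edgeR adjusted p = 0.0321 and 0.0239), with DESeq2 (adjusted p = 0.0131 and 0.0049) and without the filter on low counts (adjusted p = 0.000248 and 1.72e-06), and Cd74 passed without that filter (adjusted p = 0.00854). For Cd274 the difference itself passed that test, at 1.71 (edgeR adjusted p = 0.0274). Leaving out 1 library ended the Cd274 call in 8 of 12 fits.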

How the results depend on the processing

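Of 337 refitted values of the members, 301 kept their direction and side of the threshold, 14 passed it newly, 19 no longer passed it and 3 changed sign; those were in the supernatant: H2-Ab1 ranged from -0.411 to 0.048 and Ciita from -0.333 to 0.111 when 1 library was left out, and Ciita gave 0.18 without replicate 1 of both groups. Genes called between genotypes in bead-bound RNA numbered 78, against 183 without the filter, 124 with DESeq2, 1167 without replicate 1 of both groups (added after the data had been seen), and 58 to 82 when 1 library was left out. In the supernatant they numbered 2, against 203, 43 and 988 in the same settings, 4 with the replicate block, and 2 to 43 when 1 library was left out. Between fractions the counts were 5804 in Stat3KO (8999 with the replicate block, 2879 to 6410 when 1 library was left out) and 7564 in Ctrl pools (4866 to 8813). For the difference of ratios they were 39, against 97 without the filter, 63 with DESeq2, 59 with the replicate block and 24 to 35 when 1 library was left out. The cause of these shifts was not tested. No source used here states that replicate numbers pair pools between genotypes. Between genotypes, libraries of the same number had r = 0.115, -0.085 and 0.136 in bead-bound and 0.141, 0.037 and 0.024 in supernatant RNA. Those of unlike number had r from -0.209 to 0.093 in bead-bound and from -0.102 to 0.08 in supernatant RNA. Whether the numbers share anything between genotypes was not tested. The replicate block called no member between genotypes. Members had 4 to 192 reads a library.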
